A study of Mus musculus with 8 samples.

Results

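Mouse CD4+ T cells that were polarized towards the Th17 fate with PAM3CSK4 were compared with cells polarized in the same way with biglycan. The comparison takes 4 of the 8 messenger RNA libraries of the series, chosen by their labels: 2 libraries with PAM3CSK4 (replicates 3 and 4) and 2 with biglycan (replicates 7 and 8). No label states whether the libraries of 1 group are separate cultures. Naive CD4+ T cells came from the spleen and lymph nodes of C57BL/6 mice and were activated with antibodies against CD3e and CD28. The cells of all 4 libraries also received TGF-beta and IL-6 and were harvested after 3 days, so the ligand is the labelled difference between the groups. PAM3CSK4 was given at 2 ug/ml, and it is not clear from the study's description whether that dose also applies to biglycan. The 2 Th17 libraries polarized without a ligand (replicates 1 and 2) are given beside the results as levels, with no test. Of the 23366 genes in the count table, 11629 passed the filter on low counts and were tested.

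PAM3CSK4 is a synthetic triacylated lipopeptide that mimics bacterial lipoproteins and is sensed by the receptor pair TLR2 and TLR1, which signals through the adaptor MyD88 to NF-kB and the MAP kinases. Biglycan is a small leucine-rich proteoglycan of the extracellular matrix, and its soluble form is known in macrophages as a ligand of Toll-like receptors that include TLR2. Th17 cells are helper T cells that secrete IL-17A, IL-17F and IL-21 and arise under TGF-beta and IL-6 through STAT3.

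The libraries held 12533045 and 11107155 gene counts with PAM3CSK4, against 9361343 and 9360830 with biglycan. Levels below are CPM, each library's counts scaled to a common total with TMM factors, and a gene with 0 counts could still have had up to 0.235 to 0.317 CPM, the level of 3 counts in these libraries, a limit that covers counting error only. Mitochondrial RNA made up 14.5% ± 0.322 of the reads with PAM3CSK4 and 16.0% ± 0.136 with biglycan (SD, n = 2 each), and its part in the results was not tested. The labelled cell type was visible in its defining transcripts: Cd4, the co-receptor, had 642 and 631 CPM with PAM3CSK4, against 617 and 642 CPM with biglycan. Of 11 CD4 T cell markers tested, 1 rose and none fell. This was the adhesion molecule gene Cd2, by 0.26 on the log2 scale, and its call ended without any 1 of the 4 libraries (adjusted p = 0.11 to 0.25). Markers of myeloid cells, B cells and red cells were at or near 0, with Lyz1, Tyrobp, S100a8 and Fcgr1 at 0 counts in all 4 libraries. The exceptions among the myeloid markers were led by the protease gene Ctss, which T cells also transcribe (198 and 197 CPM with PAM3CSK4, against 209 and 212 CPM with biglycan). Of 8 tested myeloid markers, 1 rose and none fell. The riser was the MHC class II gene H2-Ab1, with 10.5 and 11.9 CPM with PAM3CSK4, against 5.05 and 4.34 CPM with biglycan and 5.99 and 2.51 CPM without ligand (1.25 ± 0.264, adjusted p = 0.00384). Of the other myeloid markers, Cd74 (0.66) leaned higher and Itgam (-0.97) lower, and neither was called. Which cells carried the H2-Ab1 or B cell transcripts was not tested.

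PAM3CSK4 and biglycan cultures differed in many genes by small amounts. With PAM3CSK4, 658 genes were higher (5.66% of those tested) and 684 were lower (5.88%) than with biglycan, by edgeR's quasi-likelihood test at a Benjamini-Hochberg adjusted p under 0.05. In either direction this was 11.5% of the tested genes. Calls were more frequent at high levels. Of the 2907 most abundant tested genes 275 rose and 235 fell, while of the 2908 least abundant 57 rose and 79 fell. The counts of list members below are to be read beside these shares, since lists of abundant genes are called more readily. Most of the called differences were below 1.5-fold (946 of 1342 genes), while 44 genes rose and 63 fell by 2-fold or more. The median log2 fold change over all tested genes was -0.00070, a value that TMM scaling itself brings close to 0, and with upper-quartile scaling 586 genes were higher and 764 lower. No overlap between PAM3CSK4 and biglycan libraries was seen in 58.9% of the tested genes and in all but 1 of the called genes, so that non-overlap of a called gene below adds nothing to its call. The root mean square log2 difference between libraries, over 9481 genes, was 0.255 to 0.307 between a PAM3CSK4 and a biglycan library, beside 0.166 within the PAM3CSK4 pair and 0.160 within the biglycan pair. Biglycan libraries lay 0.167 to 0.190 from Th17 libraries without ligand, which differed by 0.188 from each other, whereas PAM3CSK4 libraries lay 0.239 to 0.316 from them. How many genes were called depended on single libraries: 231 rose and 218 fell without PAM3CSK4 replicate 4, 171 rose and 189 fell without biglycan replicate 7, 305 rose and 320 fell without biglycan replicate 8, and 350 rose and 427 fell without PAM3CSK4 replicate 3.

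**Figure D1:**
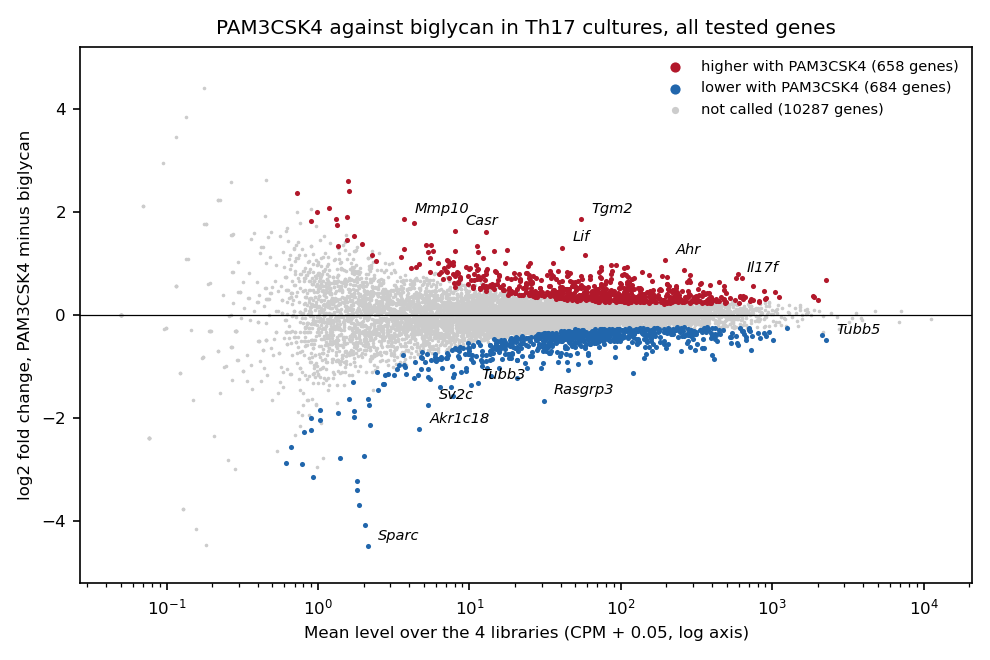
Log2 fold change of each tested gene, PAM3CSK4 minus biglycan (y axis), against its mean level in CPM over the 4 libraries (x axis, log scale). Red points are the 658 genes higher with PAM3CSK4, blue points the 684 lower and grey points the genes not called; most called genes lie close to 0, and Sparc is the lowest labelled point.

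The largest rise with PAM3CSK4, among called genes at 5 CPM or more in the higher group whose libraries did not overlap between groups, was that of Tgm2, which encodes the protein-crosslinking enzyme transglutaminase 2. Tgm2 had 72.3 and 98.0 CPM with PAM3CSK4, against 20.5 and 26.0 CPM with biglycan and 36.8 and 16.7 CPM in Th17 cultures without ligand. Both PAM3CSK4 libraries stood above the other 4, a 3.65-fold difference from biglycan (log2 fold change 1.87 ± 0.218 SE, adjusted p = 2.68e-05). Mmp10, encoding the matrix metalloproteinase stromelysin-2, followed with 5.57 and 5.97 CPM with PAM3CSK4, against 1.05 and 2.12 CPM with biglycan and 1.01 and 0.967 CPM without ligand (1.86 ± 0.338, adjusted p = 0.00138). The call of Mmp10 ended without biglycan replicate 7 (adjusted p = 0.062). Further genes of this set were Cysltr2, the receptor for cysteinyl leukotrienes (6.82 and 6.33 CPM with PAM3CSK4, against 2.00 and 1.80 CPM with biglycan), and Casr, the calcium-sensing receptor (9.88 and 14.1 CPM with PAM3CSK4, against 3.05 and 4.65 CPM with biglycan). Espn, which encodes the actin-bundling protein espin, had 16.5 and 22.2 CPM with PAM3CSK4, against 6.10 and 6.56 CPM with biglycan. These 3 genes rose by 3.45-fold, 3.09-fold and 3.04-fold, with adjusted p-values of 0.000723, 0.000980 and 0.000397.

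Within the same limits on level and overlap, the largest fall was that of Akr1c18, which encodes 20-alpha-hydroxysteroid dehydrogenase, an enzyme that inactivates progesterone. Akr1c18 had 1.80 and 1.45 CPM with PAM3CSK4, against 8.41 and 6.77 CPM with biglycan and 5.07 and 8.51 CPM without ligand. It was low in both PAM3CSK4 libraries, and both biglycan libraries lay within the range of the cultures without ligand. The level was 4.61-fold higher with biglycan than with PAM3CSK4 (-2.21 ± 0.320, adjusted p = 0.000168). Sv2c, a gene for a synaptic vesicle glycoprotein, had 2.35 and 2.53 CPM with PAM3CSK4, against 8.72 and 7.62 CPM with biglycan (-1.74 ± 0.240, adjusted p = 9.77e-05). Rasgrp3, which encodes a diacylglycerol-regulated activator of Ras and Rap, had 14.3 and 15.5 CPM with PAM3CSK4, against 50.1 and 43.5 CPM with biglycan and 38.6 and 65.9 CPM without ligand (-1.66 ± 0.183, adjusted p = 2.15e-05). The guidance genes Ntn1 (netrin-1, -1.57 ± 0.234) and Plxnb1 (plexin-B1, a semaphorin receptor, -1.22 ± 0.167) also fell. So did Tet1, encoding an enzyme that oxidises methylated cytosine (-1.21 ± 0.200), and Il17rd, encoding an IL-17 receptor family member that dampens FGF signalling (-1.39 ± 0.281), with adjusted p-values of 0.000217, 9.19e-05, 0.000590 and 0.00275 for Ntn1, Plxnb1, Tet1 and Il17rd.

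The 250 bases before the annotated start of Mmp10 and of Akr1c18 are shown because, within the limits on level and overlap given above, these genes had the largest rise that the sequence table covers and the largest fall. They are RefSeq sequences of build GRCm38.p6, which differs from the mm9 build of the counts, at chr9:7502092-7502341 on the plus strand for Mmp10 and at chr13:4150647-4150896 on the minus strand for Akr1c18, each written 5′ to 3′ along the gene. Capitals mark a match to TGANTCA, a form of the AP-1 motif that reads alike on both strands. The Tgm2 promoter is not in the table.
Mmp10: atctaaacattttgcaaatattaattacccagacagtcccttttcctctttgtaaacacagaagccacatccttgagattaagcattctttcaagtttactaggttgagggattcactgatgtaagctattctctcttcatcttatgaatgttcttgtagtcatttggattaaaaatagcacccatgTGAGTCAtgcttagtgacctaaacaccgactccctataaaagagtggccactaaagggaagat
Akr1c18: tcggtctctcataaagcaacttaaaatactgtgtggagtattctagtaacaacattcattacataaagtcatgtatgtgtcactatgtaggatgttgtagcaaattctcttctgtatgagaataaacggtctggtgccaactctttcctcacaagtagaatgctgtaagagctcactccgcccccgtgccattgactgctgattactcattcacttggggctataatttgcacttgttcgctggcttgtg
Mmp10 has 1 match, which starts 63 bases before the annotated start, and Akr1c18 has none. The promoters of Cysltr2, the riser next in size, and of Sv2c, the faller next in size, have none either. The motif occurs in 6.75% of 32851 such promoters. Another motif, TTCNNNGAA, which STAT proteins bind and which also reads alike on both strands, occurs in 7.02% of them and in none of these 4. A match describes the letters only, and occupancy was not measured.

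The signature cytokine genes Il17a, Il17f and Il21 were higher with PAM3CSK4. Il17f had 673 and 758 CPM with PAM3CSK4, against 441 and 426 CPM with biglycan and 462 and 358 CPM without ligand. Both PAM3CSK4 libraries lay above all others, a 1.65-fold difference (0.72 ± 0.0986, adjusted p = 8.61e-05). Il17a had 126 and 179 CPM with PAM3CSK4, against 89.8 and 94.3 CPM with biglycan and 95.8 and 77.2 CPM without ligand, also 1.65-fold (0.72 ± 0.126, adjusted p = 0.000971). Il21, an autocrine cytokine that sustains Th17 cells, had 336 and 334 CPM with PAM3CSK4, against 210 and 221 CPM with biglycan (0.64 ± 0.0941, adjusted p = 0.000204). The calls of these 3 genes held in each fit without 1 library. Il10, the anti-inflammatory cytokine gene, had 24.6 and 42.3 CPM with PAM3CSK4, against 16.6 and 16.4 CPM with biglycan, and here the PAM3CSK4 libraries differed widely from each other (1.01 ± 0.233, adjusted p = 0.00707). Its call ended without PAM3CSK4 replicate 4 (adjusted p = 0.21), biglycan replicate 7 (0.070) or biglycan replicate 8 (0.052). Ccr6, the chemokine receptor by which Th17 cells follow CCL20, went the other way, with 12.4 and 10.3 CPM with PAM3CSK4, against 16.4 and 18.4 CPM with biglycan (-0.61 ± 0.160, adjusted p = 0.0173). Its call ended without PAM3CSK4 replicate 4 (0.19), biglycan replicate 7 (0.071) or biglycan replicate 8 (0.17). Of 10 tested Th17 cytokines and receptors, 4 rose and 1 fell, with a median log2 fold change of 0.36. Il22 had 0 counts in all 4 libraries.

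**Figure D2:**
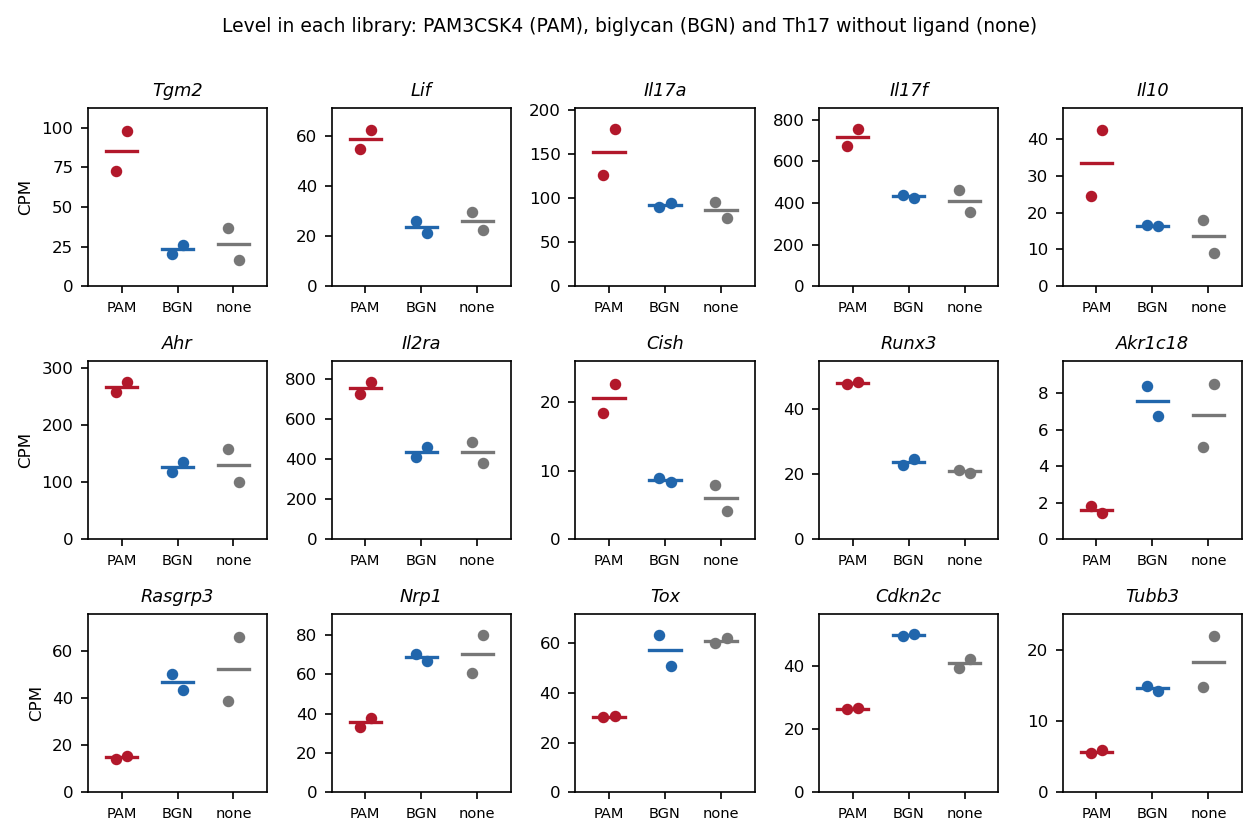
Level in CPM (y axes, linear from 0) of 15 genes in each library of the PAM3CSK4, biglycan and no-ligand groups, with points for libraries and bars for the mean of 2. For Il17f the PAM3CSK4 libraries reach 673 and 758 CPM, while the biglycan libraries at 441 and 426 CPM lie within the range of 358 to 462 CPM without ligand.

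Genes that have been linked to non-pathogenic Th17 cells, the kind that also makes IL-10, were counted beside those linked to pathogenic ones. Of 7 tested non-pathogenic genes, 5 rose and none fell (median 0.72, the value of Il17f): Il17a, Il17f, Il10, Ahr and Maf. Il17a and Il17f are signature genes of Th17 cells in general, so their rise does not tell these kinds apart. Il6st (-0.20) and Ikzf3 (-0.20) leaned the other way and were not called. Of 12 tested pathogenic genes, 2 rose and 1 fell (median 0.14). The gene that fell was Lag3, encoding an inhibitory receptor (-0.41), whose call ended without PAM3CSK4 replicate 4 (adjusted p = 0.16) or biglycan replicate 7 (0.19). The riser of higher level was Gpr65, encoding a proton-sensing receptor (0.59 log2 fold change), whose call ended without biglycan replicate 7 (adjusted p = 0.070). The other was Csf2, encoding GM-CSF, at 1.26 and 2.44 CPM with PAM3CSK4, against 0.315 and 0.529 CPM with biglycan. The biglycan levels of Csf2 rest on few counts, and its call (adjusted p = 0.0312) ended without PAM3CSK4 replicate 4 (0.34), biglycan replicate 7 (0.28) or biglycan replicate 8 (0.12). Without PAM3CSK4 replicate 4, biglycan replicate 7 or biglycan replicate 8, 3 of the non-pathogenic genes were called.

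Transcription factors of the Th17 programme rose with PAM3CSK4 in 7 of 15 cases, and none fell (median log2 fold change 0.26). Ahr, the ligand-activated aryl hydrocarbon receptor, had 258 and 274 CPM with PAM3CSK4, against 118 and 135 CPM with biglycan and 158 and 101 CPM without ligand. This was a 2.10-fold difference (1.07 ± 0.128, adjusted p = 3.15e-05). Rora, encoding the nuclear receptor ROR-alpha, had 135 and 145 CPM with PAM3CSK4, against 86.6 and 80.1 CPM with biglycan (0.75 ± 0.0842, adjusted p = 2.20e-05). Irf4, a factor that pairs with BATF on T cell enhancers, had 883 and 901 CPM with PAM3CSK4, against 571 and 636 CPM with biglycan (0.56 ± 0.0946, adjusted p = 0.000648), and Bhlhe40 rose by 0.54 ± 0.0848 (adjusted p = 0.000388). Without PAM3CSK4 replicate 4 or biglycan replicate 7, 4 of the 15 factors were called, among them Ahr, Rora and Irf4. Maf (1163 and 1317 CPM with PAM3CSK4, against 935 and 1002 CPM with biglycan) lost its call without PAM3CSK4 replicate 4 (adjusted p = 0.26), biglycan replicate 7 (0.23) or biglycan replicate 8 (0.063).

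Of 6 tested targets of the aryl hydrocarbon receptor, 4 rose and none fell (median 0.36). Tiparp, encoding an ADP-ribosyltransferase that feeds back on the receptor, had 309 and 381 CPM with PAM3CSK4, against 205 and 226 CPM with biglycan (0.68 ± 0.103, adjusted p = 0.000261). Ahrr, the receptor's repressor, had 129 and 139 CPM with PAM3CSK4, against 85.3 and 86.0 CPM with biglycan (0.64 ± 0.113, adjusted p = 0.00103). Both genes were higher in each PAM3CSK4 library than in each biglycan library. Cyp1a1, the classic target that oxidises aryl hydrocarbons, had 183 and 236 CPM with PAM3CSK4, against 157 and 142 CPM with biglycan (0.49 ± 0.117, adjusted p = 0.00948). Its call ended without PAM3CSK4 replicate 4 (0.24) or biglycan replicate 8 (0.11), and 2 of the 6 targets were called in either of these fits.

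Of 17 tested IL-2 and STAT5 targets, 9 rose and none fell (median 0.45), and the other 8 were not called. Il2ra, the high-affinity chain of the IL-2 receptor and itself a target, had 723 and 786 CPM with PAM3CSK4, against 411 and 459 CPM with biglycan and 487 and 380 CPM without ligand (0.79 ± 0.0971, adjusted p = 3.68e-05). Cish, a STAT5-induced feedback inhibitor, had 18.4 and 22.6 CPM with PAM3CSK4, against 8.94 and 8.36 CPM with biglycan (1.24 ± 0.205, adjusted p = 0.000586). Both genes were high in the 2 PAM3CSK4 libraries. Socs1, another feedback inhibitor, had 56.0 and 75.1 CPM with PAM3CSK4, against 43.3 and 43.6 CPM with biglycan (0.59 ± 0.114, adjusted p = 0.00199), and lost its call without PAM3CSK4 replicate 4 (0.089). Without that library 5 of the 17 targets were called.

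Lif, encoding an IL-6 family cytokine known to oppose Th17 development, was the cytokine gene with the largest rise at 5 CPM or more. It had 54.6 and 62.4 CPM with PAM3CSK4, against 26.0 and 21.2 CPM with biglycan and 29.6 and 22.4 CPM without ligand, a 2.48-fold difference (1.31 ± 0.135, adjusted p = 1.73e-05). The list of IL-6 and STAT3 targets shares its risers Il21, Il10, Ahr, Maf, Rora and Stat3 with the Th17 lists above. Its count is therefore not separate from theirs. Socs3 (-0.14) and Il6st (-0.20), also on this list, leaned lower and were not called. Of 17 tested IL-6 and STAT3 targets, 9 rose and none fell (median 0.36), with Lif, Ahr and Rora among them. Without PAM3CSK4 replicate 4 or biglycan replicate 7, 5 of these targets were called. Tnf, a cytokine of many activated T cells, had 62.5 and 64.7 CPM with PAM3CSK4, against 43.8 and 43.1 CPM with biglycan (0.55 ± 0.0905, adjusted p = 0.000570). Ifng, the Th1 cytokine, had 0 counts in all 4 libraries.

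Cytokine receptor genes rose in 6 of 29 cases, and none fell (median 0.14). Il12rb1, the chain shared by the receptors for IL-12 and IL-23, had 170 and 183 CPM with PAM3CSK4, against 95.4 and 101 CPM with biglycan (0.84 ± 0.0911, adjusted p = 2.01e-05). Il12rb2, the chain particular to the IL-12 receptor, had 15.5 and 16.5 CPM with PAM3CSK4, against 6.62 and 6.03 CPM with biglycan (1.34 ± 0.230, adjusted p = 0.000805). For both genes each PAM3CSK4 library exceeded each biglycan library. Il23r, the other chain of the IL-23 receptor, had 13.3 and 8.41 CPM with PAM3CSK4, against 6.31 and 9.10 CPM with biglycan, so that the groups overlapped (adjusted p = 0.309). Runx3, a factor shared by Th1 and cytotoxic T cells, had 47.6 and 48.3 CPM with PAM3CSK4, against 22.7 and 24.8 CPM with biglycan and 21.3 and 20.5 CPM without ligand (2.02-fold, 1.01 ± 0.105, adjusted p = 1.73e-05). Tbx21, encoding the Th1 master factor T-bet, was low in all 4 libraries, with 0.706 and 0.995 CPM with PAM3CSK4, against 1.26 and 1.06 CPM with biglycan (adjusted p = 0.643). Of 12 tested Th1 genes, 4 rose and none fell (median 0.16). Eomes and Cxcr3 leaned lower and were not called. Eomes had 0.706 CPM and 0 counts with PAM3CSK4, against 1.58 and 1.69 CPM with biglycan (-2.08 ± 0.684, adjusted p = 0.054). Cxcr3 had a log2 fold change of -0.54 (adjusted p = 0.166).

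The receptors that sense PAM3CSK4 were transcribed at low levels and were not called. Tlr1 had 18.1 and 16.4 CPM with PAM3CSK4, against 19.1 and 21.8 CPM with biglycan (-0.24 ± 0.129, adjusted p = 0.251). Tlr2, the chain common to both ligands, had 1.96 and 2.71 CPM with PAM3CSK4, against 2.52 and 1.69 CPM with biglycan (0.14 ± 0.353, adjusted p = 0.856). Tlr6, an alternative partner of TLR2, had 6.43 and 5.16 CPM with PAM3CSK4, against 7.04 and 5.40 CPM with biglycan (-0.10 ± 0.237, adjusted p = 0.850). The groups overlapped for Tlr2 and Tlr6. Myd88, the adaptor, had 69.0 and 64.9 CPM with PAM3CSK4, against 62.1 and 55.0 CPM with biglycan (0.19 ± 0.102, adjusted p = 0.246). Of 22 tested genes of the Toll-like receptor and MyD88 pathway, 1 rose and 1 fell (median 0.00, beside -0.00070 over all tested genes), and the 9.09% called lay near the 11.5% of all tested genes. These were the ubiquitin ligase genes Peli2 and Peli1, and both calls ended without PAM3CSK4 replicate 4 (adjusted p = 0.14 for Peli2 and 0.086 for Peli1) or biglycan replicate 7 (0.27 and 0.081). The Peli2 call also ended without PAM3CSK4 replicate 3 (0.077), and the Peli1 call without PAM3CSK4 replicate 3 (0.068) or biglycan replicate 8 (0.075).

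Such receptors, like the T cell receptor, signal to NF-kB and AP-1. Of 26 tested NF-kB subunits and targets, 7 rose with PAM3CSK4 and none fell (median 0.18). Nfkbia, encoding the inhibitor I-kappa-B-alpha that NF-kB induces, had 116 and 119 CPM with PAM3CSK4, against 81.2 and 81.8 CPM with biglycan and 79.4 and 73.5 CPM without ligand (0.53 ± 0.0790, adjusted p = 0.000231). Rela, the subunit p65, had 171 and 178 CPM with PAM3CSK4, against 131 and 138 CPM with biglycan (0.37 ± 0.0826, adjusted p = 0.00536), a call that ended without PAM3CSK4 replicate 4 (0.080) or biglycan replicate 7 (0.11). In each fit without 1 of the 4 libraries, 3 NF-kB genes were called. Of 19 tested AP-1 and immediate early genes, 10 rose and none fell (median 0.43). Jun, the AP-1 subunit, had 108 and 140 CPM with PAM3CSK4, against 62.0 and 64.0 CPM with biglycan (1.96-fold, 0.97 ± 0.111, adjusted p = 2.20e-05). Fosl2, a FOS family partner, had 222 and 249 CPM with PAM3CSK4, against 138 and 142 CPM with biglycan (0.75 ± 0.0939, adjusted p = 4.83e-05). Ier5, an immediate early gene, rose by 0.78 ± 0.0978 (adjusted p = 4.83e-05). Between 4 and 6 of these genes were called without 1 library, with 5 without PAM3CSK4 replicate 4, 4 without biglycan replicate 7, and 6 without PAM3CSK4 replicate 3 or biglycan replicate 8.

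Among ligands, receptors and targets of the TGF-beta pathway, 6 of 22 rose and 1 fell (median 0.13). Klf10, an early TGF-beta target, had 99.1 and 120 CPM with PAM3CSK4, against 62.7 and 62.5 CPM with biglycan (0.80 ± 0.103, adjusted p = 5.47e-05). Smad3, a signal transducer of the pathway, had 280 and 266 CPM with PAM3CSK4, against 195 and 202 CPM with biglycan (0.46 ± 0.0758, adjusted p = 0.000586). Tgif1, a corepressor of SMAD proteins, was the gene that fell, with 96.7 and 111 CPM with PAM3CSK4, against 154 and 150 CPM with biglycan (-0.55 ± 0.0826, adjusted p = 0.000237). In each of these 3 genes the biglycan libraries lay close together and apart from both PAM3CSK4 libraries. Without PAM3CSK4 replicate 4, 2 of the 22 genes rose, and 4 rose without biglycan replicate 7 or biglycan replicate 8.

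Markers of T cell activation rose in 10 of 23 cases and fell in 1 (median 0.23), while genes of the naive and quiescent state rose in 2 and fell in 9 of 25 (median -0.22). Cd44, the hyaluronan receptor of activated and memory cells, had 334 and 366 CPM with PAM3CSK4, against 220 and 230 CPM with biglycan (0.64 ± 0.0852, adjusted p = 7.41e-05). Myc, the growth regulator, had 112 and 114 CPM with PAM3CSK4, against 58.2 and 67.1 CPM with biglycan and 71.2 and 56.0 CPM without ligand (1.80-fold, 0.85 ± 0.101, adjusted p = 3.15e-05). On the quiescent side, Klf2, which maintains the naive state and lymphoid recirculation, had 139 and 130 CPM with PAM3CSK4, against 181 and 187 CPM with biglycan (-0.45 ± 0.0780, adjusted p = 0.000872). Pecam1, encoding the adhesion molecule CD31, had 139 and 125 CPM with PAM3CSK4, against 198 and 189 CPM with biglycan (-0.55 ± 0.103, adjusted p = 0.00148). Klf2 and Pecam1 were lower in each PAM3CSK4 library than in each biglycan library. Foxo1 and Txnip were the 2 that rose, by 0.34 and 0.31, and both calls ended without any 1 of the 4 libraries, at adjusted p-values of 0.053 to 0.21 for Foxo1 and 0.075 to 0.27 for Txnip. The number of quiescence genes that fell was 6 without PAM3CSK4 replicate 3, 2 without PAM3CSK4 replicate 4, and 4 without biglycan replicate 7 or biglycan replicate 8. For activation genes that rose, the only count moved by over 1.5 times was that without biglycan replicate 7, at 6.

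Genes shared with other T cell states moved both ways. Nrp1, encoding the semaphorin receptor neuropilin-1 carried by thymic regulatory T cells, had 33.5 and 37.9 CPM with PAM3CSK4, against 70.6 and 66.8 CPM with biglycan and 60.9 and 80.0 CPM without ligand (-0.95 ± 0.122, adjusted p = 5.47e-05). Tox, a nuclear factor of follicular helper and exhausted T cells, had 30.3 and 30.7 CPM with PAM3CSK4, against 63.4 and 51.0 CPM with biglycan (-0.91 ± 0.109, adjusted p = 3.15e-05). Both stood low in the PAM3CSK4 libraries alone. Of 17 regulatory T cell genes tested, 2 rose and 2 fell (23.5% called), and of 13 follicular helper genes 2 rose and 3 fell (38.5% called). Of all tested genes, 11.5% were called. For regulatory T cell genes, 1 fell without PAM3CSK4 replicate 3, 1 rose without PAM3CSK4 replicate 4, and 1 rose and 1 fell without biglycan replicate 7 or biglycan replicate 8. The follicular helper genes that rose numbered 1 without biglycan replicate 7. Of 21 homing receptors, 7 rose and 3 fell (median -0.05). Their log2 fold changes ran from -1.16 to 0.66, and 10 of the 21 were above 0. Gpr183, which guides lymphocytes along oxysterols, rose by 0.66, and Itgal, encoding the alpha chain of the integrin LFA-1, had 290 and 296 CPM with PAM3CSK4, against 202 and 222 CPM with biglycan (0.47 ± 0.0777, adjusted p = 0.000630). Homing receptors that rose numbered 3 without PAM3CSK4 replicate 4, 2 without biglycan replicate 7 and 3 without biglycan replicate 8, and none fell in these 3 fits.

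Of 30 tested genes of glycolysis and the hypoxia response, 15 rose with PAM3CSK4 and none fell (median 0.31). Aldoc, encoding the glycolytic enzyme aldolase C, had 95.9 and 99.3 CPM with PAM3CSK4, against 47.9 and 53.8 CPM with biglycan and 69.2 and 44.7 CPM without ligand (0.94 ± 0.133, adjusted p = 0.000130). Slc2a1, the glucose transporter GLUT1, had 27.8 and 33.9 CPM with PAM3CSK4, against 20.6 and 19.0 CPM with biglycan (0.63 ± 0.121, adjusted p = 0.00179). Vegfa, a hypoxia target, had 14.4 and 14.7 CPM with PAM3CSK4, against 6.20 and 8.67 CPM with biglycan (0.97 ± 0.184, adjusted p = 0.00173). Slc2a1 lost its call without PAM3CSK4 replicate 4 (0.055) and Vegfa without biglycan replicate 7 (0.072). The number of glycolysis and hypoxia genes called was 6 without PAM3CSK4 replicate 3, 6 without PAM3CSK4 replicate 4, 4 without biglycan replicate 7 and 5 without biglycan replicate 8. Oxidative phosphorylation genes differed little: of 29 tested, 1 rose and none fell (median -0.02), and none was called in any fit without 1 of the 4 libraries.

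Of 23 tested genes of cholesterol synthesis, 11 rose with PAM3CSK4 and none fell (median 0.35). Sqle, encoding squalene epoxidase, had 239 and 239 CPM with PAM3CSK4, against 165 and 171 CPM with biglycan (0.51 ± 0.0767, adjusted p = 0.000237). Cyp51, encoding the lanosterol demethylase, had 562 and 552 CPM with PAM3CSK4, against 385 and 411 CPM with biglycan (0.48 ± 0.0872, adjusted p = 0.00113). The 2 PAM3CSK4 libraries were close together for these genes and stood above both biglycan libraries. Fasn, the fatty acid synthase gene, had 809 and 772 CPM with PAM3CSK4, against 473 and 489 CPM with biglycan (1.64-fold, 0.72 ± 0.0794, adjusted p = 2.15e-05). Of 14 fatty acid synthesis genes, 6 rose and none fell (median 0.33), with 3 called without PAM3CSK4 replicate 3, 3 without PAM3CSK4 replicate 4 and 1 without biglycan replicate 7. The cholesterol count moved by over 1.5 times in 1 of these fits, to 7 without biglycan replicate 7.

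Ribosome biogenesis genes rose in 16 of 32 cases and fell in 1 (median 0.31). Rrp1b, a nucleolar gene for ribosomal RNA processing, had 80.3 and 73.2 CPM with PAM3CSK4, against 49.5 and 45.3 CPM with biglycan (0.70 ± 0.0909, adjusted p = 6.10e-05). The count of risers was 6 without PAM3CSK4 replicate 3, 5 without PAM3CSK4 replicate 4, 2 without biglycan replicate 7 and 6 without biglycan replicate 8, and no gene of the list fell in these fits. Of 28 genes of amino acid supply and the ATF4 response, 6 rose and none fell (median 0.13), led by the amino acid transporter gene Slc7a5, with 60.4 and 58.4 CPM with PAM3CSK4, against 41.7 and 38.7 CPM with biglycan (0.56 ± 0.100, adjusted p = 0.00101). Of 19 chaperones and unfolded protein response genes of the endoplasmic reticulum, 4 rose and none fell (median 0.21). Hspa5, encoding the chaperone BiP, had 554 and 591 CPM with PAM3CSK4, against 383 and 391 CPM with biglycan (0.56 ± 0.0797, adjusted p = 0.000129). Without PAM3CSK4 replicate 4, biglycan replicate 7 or biglycan replicate 8, 1 to 2 of the amino acid genes and 1 of the chaperone genes were called, and without PAM3CSK4 replicate 3, 3 amino acid genes were.

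**Figure D3:**
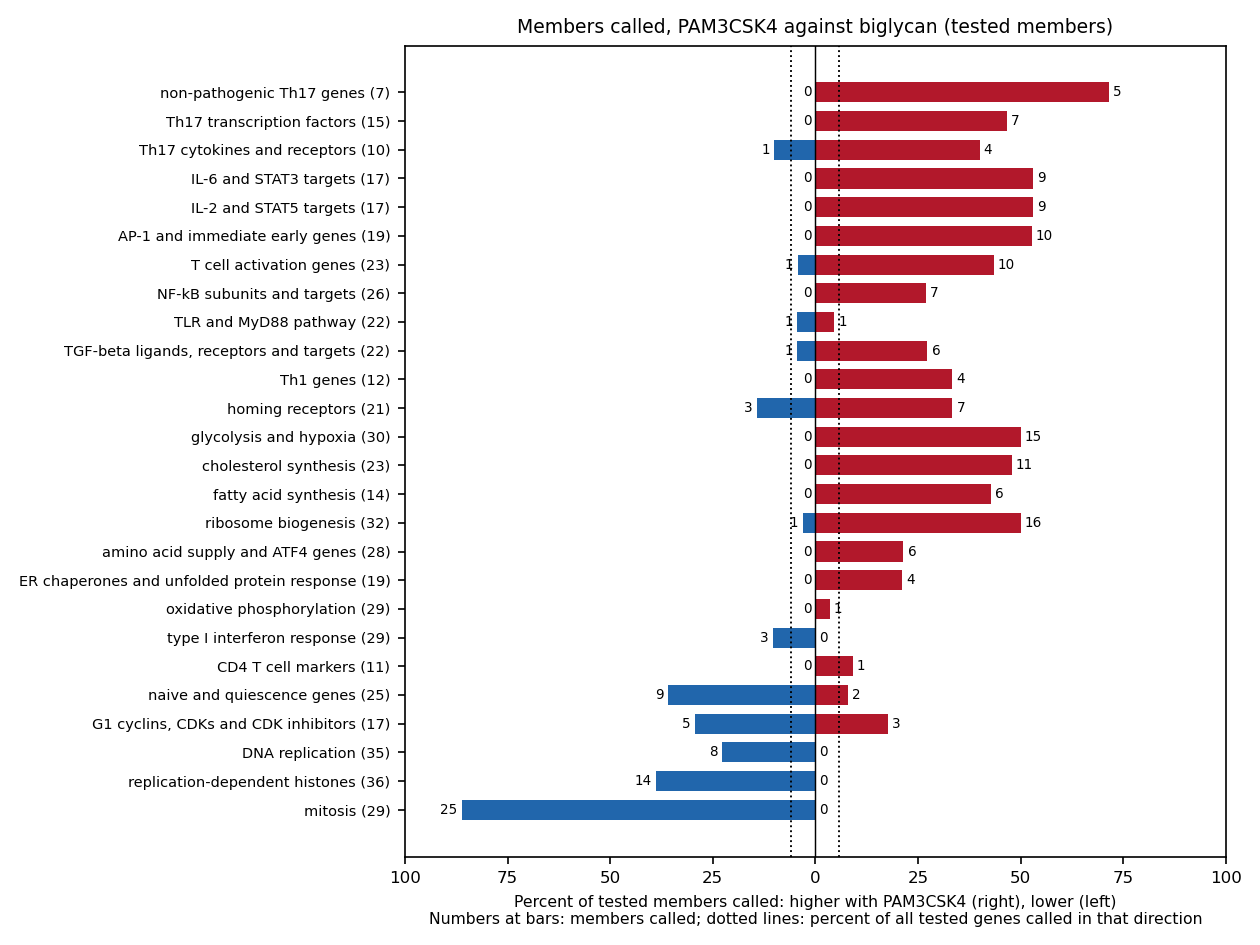
Percent of the tested members of each gene list (x axis) called higher with PAM3CSK4 than with biglycan (red, right) or lower (blue, left), with tested members in brackets after the list name and called members at the bars. Dotted lines mark the shares among all tested genes, 5.66% higher and 5.88% lower; the mitosis list has 25 of 29 members lower, and the TLR and MyD88 list lies within the lines.

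Of 29 tested mitosis genes, 25 fell with PAM3CSK4 and none rose (median -0.44). Nusap1, encoding a spindle-associated protein, had 176 and 158 CPM with PAM3CSK4, against 243 and 245 CPM with biglycan and 206 and 230 CPM without ligand (-0.55 ± 0.0828, adjusted p = 0.000244). Kif20a, a kinesin gene for cytokinesis, had 113 and 103 CPM with PAM3CSK4, against 156 and 153 CPM with biglycan (-0.51 ± 0.0827, adjusted p = 0.000453). Ccna2, the cyclin of S and G2 phase, had 238 and 221 CPM with PAM3CSK4, against 319 and 329 CPM with biglycan (-0.50 ± 0.0858, adjusted p = 0.000825). For each of these 3 genes the lowest levels were in PAM3CSK4 replicate 4, the highest were with biglycan, and the cultures without ligand lay between the groups. The list's median, relative to the mean of the biglycan libraries, was -0.34 in PAM3CSK4 replicate 3 and -0.55 in PAM3CSK4 replicate 4, beside -0.24 and -0.13 in Th17 replicates 1 and 2. The number of mitosis genes that fell was 22 without PAM3CSK4 replicate 3, but 5 without PAM3CSK4 replicate 4 and 11 without biglycan replicate 7 or biglycan replicate 8. In these bulk libraries, fewer dividing cells and less of these transcripts per cell cannot be told apart.

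**Figure D4:**
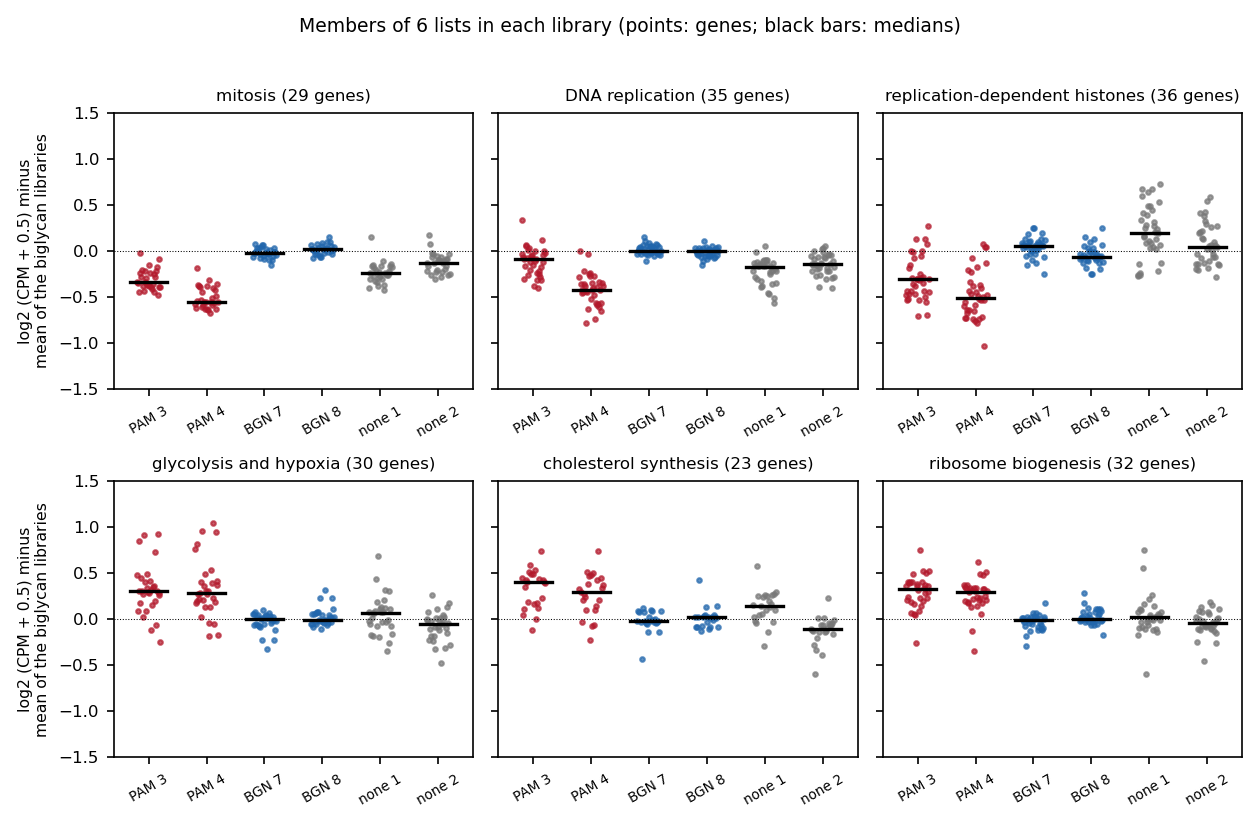
Members of 6 gene lists (points) in each library, as log2 (CPM + 0.5) minus the mean of the 2 biglycan libraries (y axis), with black bars for medians and groups in the order PAM3CSK4, biglycan and no ligand. Mitosis medians are -0.34 and -0.55 with PAM3CSK4, and those of glycolysis and hypoxia are 0.31 and 0.28.

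DNA replication genes depended on the library. Of 35 tested, 8 fell and none rose (median -0.22), and the list's median relative to biglycan was -0.09 in PAM3CSK4 replicate 3 and -0.43 in PAM3CSK4 replicate 4, beside -0.17 and -0.14 without ligand. Mcm6, a subunit of the replicative helicase, had 594 and 545 CPM with PAM3CSK4, against 754 and 713 CPM with biglycan (-0.36 ± 0.0771, adjusted p = 0.00396). Rrm2, which encodes the regulated subunit of ribonucleotide reductase, had 99.1 and 80.6 CPM with PAM3CSK4, against 127 and 114 CPM with biglycan (-0.42 ± 0.0930, adjusted p = 0.00536). Mcm6 lost its call without PAM3CSK4 replicate 4 (0.12) or biglycan replicate 7 (0.095), and Rrm2 likewise (0.16 and 0.13). Another helicase subunit gene, Mcm3, had 272 and 215 CPM with PAM3CSK4, against 215 and 214 CPM with biglycan, with replicate 3 alone above the rest (adjusted p = 0.223). Of the 35 genes, 16 fell without PAM3CSK4 replicate 3, none without PAM3CSK4 replicate 4, 1 without biglycan replicate 7 and 2 without biglycan replicate 8, and with DESeq2 5 fell.

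Regulators of the G1 phase moved in both directions, with 3 of 17 higher and 5 lower (median -0.20). Ccnd2, the D-type cyclin that mitogens induce, had 234 and 249 CPM with PAM3CSK4, against 153 and 165 CPM with biglycan (0.60 ± 0.0787, adjusted p = 6.10e-05). Cdkn2c, encoding the CDK4 and CDK6 inhibitor p18, had 26.5 and 26.6 CPM with PAM3CSK4, against 49.5 and 50.0 CPM with biglycan and 39.3 and 42.4 CPM without ligand (-0.91 ± 0.104, adjusted p = 2.20e-05). The 2 libraries of each group nearly coincided for Cdkn2c. Cdkn1b, encoding p27, had 255 and 294 CPM with PAM3CSK4, against 359 and 348 CPM with biglycan (-0.37 ± 0.0916, adjusted p = 0.0123). Cdkn1a, encoding p21, had 10.4 and 10.9 CPM with PAM3CSK4, against 5.68 and 6.45 CPM with biglycan (0.81 ± 0.191, adjusted p = 0.00845). The Cdkn1b call ended without PAM3CSK4 replicate 3 (0.20), biglycan replicate 7 (0.13) or biglycan replicate 8 (0.064), and that of Cdkn1a without PAM3CSK4 replicate 4 (0.081) or biglycan replicate 7 (0.13). Genes of this list that fell numbered 3 without PAM3CSK4 replicate 3 and 2 in each of the other 3 fits, and risers 1 without PAM3CSK4 replicate 4, 1 without biglycan replicate 7 and 2 without biglycan replicate 8.

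Histone genes whose expression is tied to S phase fell in 14 of 36 cases, and none rose (median -0.41). The linker histone gene Hist1h1b had 241 and 211 CPM with PAM3CSK4, against 357 and 341 CPM with biglycan and 291 and 315 CPM without ligand (-0.62 ± 0.0823, adjusted p = 6.71e-05). Hist1h1d had 291 and 252 CPM with PAM3CSK4, against 438 and 402 CPM with biglycan (-0.63 ± 0.0882, adjusted p = 0.000125). Histone genes together took 0.323% and 0.282% of the gene counts with PAM3CSK4, against 0.447% and 0.406% with biglycan. Histone copies are nearly identical and most of their transcripts lack a poly(A) tail, so the values of single copies are uncertain in libraries of messenger RNA. Histone genes that fell numbered 8 without PAM3CSK4 replicate 4 and 7 without biglycan replicate 7. Tubulins are also a family of close copies. Of 13 tested, 4 fell and 1 rose (median -0.20). The riser was Tuba4a (0.34), whose call ended without PAM3CSK4 replicate 3 (adjusted p = 0.30), biglycan replicate 7 (0.26) or biglycan replicate 8 (0.086). Tubb3, known as the neuronal beta-tubulin, had 5.49 and 5.97 CPM with PAM3CSK4, against 15.03 and 14.28 CPM with biglycan and 14.8 and 22.0 CPM without ligand (-1.36 ± 0.206, adjusted p = 0.000262). Tubb2b had 18.9 and 20.0 CPM with PAM3CSK4, against 42.5 and 37.0 CPM with biglycan (-1.03 ± 0.131, adjusted p = 5.16e-05). Tubb5, the main beta-tubulin of lymphocytes, had 1902 and 1853 CPM with PAM3CSK4, against 2692 and 2568 CPM with biglycan (-0.49 ± 0.0846, adjusted p = 0.000857). These 3 tubulin genes were lower in each PAM3CSK4 library than in any other of the 6 polarized libraries.

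Genes of the BCL2 family, which set the threshold for apoptosis, were called in 4 of 14 cases, 2 in each direction. Bcl2l11, encoding the pro-apoptotic protein BIM, had 85.7 and 89.7 CPM with PAM3CSK4, against 132 and 138 CPM with biglycan (-0.62 ± 0.0809, adjusted p = 6.10e-05). Bcl2l1, encoding the anti-apoptotic BCL-XL, had 75.3 and 88.5 CPM with PAM3CSK4, against 62.3 and 57.8 CPM with biglycan (0.45 ± 0.0972, adjusted p = 0.00485), and lost its call without PAM3CSK4 replicate 4 (0.13) or biglycan replicate 8 (0.078). The other 2 were Bbc3, encoding the pro-apoptotic PUMA, which rose by 0.43, and Bok, which fell by 1.13, and both calls ended without any 1 of the 4 libraries (adjusted p = 0.051 to 0.26 for Bbc3 and 0.079 to 0.37 for Bok). The type I interferon response was nearly level: of 29 genes, 3 fell and none rose (median -0.03). The 10.3% called lay near the 11.5% of all tested genes. Usp18, which removes ISG15 from proteins, had 5.18 and 3.35 CPM with PAM3CSK4, against 10.2 and 7.30 CPM with biglycan (-1.02 ± 0.239, adjusted p = 0.00798), and Ifit2, an interferon-induced RNA-binding protein gene, had 14.2 and 12.5 CPM with PAM3CSK4, against 26.0 and 19.1 CPM with biglycan (-0.75 ± 0.167, adjusted p = 0.00551). Both calls ended without PAM3CSK4 replicate 4 (0.13 for Usp18 and 0.070 for Ifit2) or biglycan replicate 7 (0.18 and 0.17). None of the 29 fell in either of these fits, while 2 fell without PAM3CSK4 replicate 3 and 2 without biglycan replicate 8.

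Several transcripts of matrix-producing cells, though not all, were mainly in 1 biglycan library. Sparc, a matrix glycoprotein gene of fibroblasts and endothelium, had 0.0784 and 0.271 CPM with PAM3CSK4, against 6.94 and 1.06 CPM with biglycan and 0.591 and 1.35 CPM without ligand. Col1a2, for a chain of type I collagen, had 0.392 and 0.271 CPM with PAM3CSK4, against 5.15 and 1.27 CPM with biglycan. Col3a1, for type III collagen, had 0.157 and 0.904 CPM with PAM3CSK4, against 6.20 and 0.635 CPM with biglycan. For these genes biglycan replicate 7 was the highest of the 6 polarized libraries. Bgn, the gene for biglycan itself, was not tested and had 0.0784 and 0.0904 CPM with PAM3CSK4, against 3.36 and 0.212 CPM with biglycan and 0.0844 and 0.870 CPM without ligand. Other members of the list differed from this pattern. Lum, also not tested, had 0.235 and 0.814 CPM with PAM3CSK4 and 0 counts with biglycan, and Dcn had 0 counts throughout. Col1a1 had 2.00 CPM in biglycan replicate 7 and 1.93 CPM in Th17 replicate 2. Of 6 tested stromal and endothelial markers, 4 were called lower with PAM3CSK4 (median -2.33), and 1 was without biglycan replicate 7 and also 1 with DESeq2. Without that library the calls of Sparc (adjusted p = 0.26), Col1a2 (0.32) and Col3a1 (0.94) ended, while that of Pecam1, which T cells transcribe too, held. Col1a2 also lost its call without PAM3CSK4 replicate 4 (0.073), and Col3a1 without PAM3CSK4 replicate 3 (0.24) or 4 (0.053). DESeq2 gave no adjusted p for Sparc, Col1a2 and Col3a1, so its count of 1 does not test their calls. Summed over the 12 markers, the level was 141 and 128 CPM with PAM3CSK4, against 223 and 194 CPM with biglycan and 162 and 220 CPM without ligand, mostly from Pecam1. The part of these transcripts in the other differences was not tested. Leaving out biglycan replicate 7 cannot decide it, since biglycan replicate 8 also had more Sparc and Col1a2 than either PAM3CSK4 library.

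**Figure D5:**
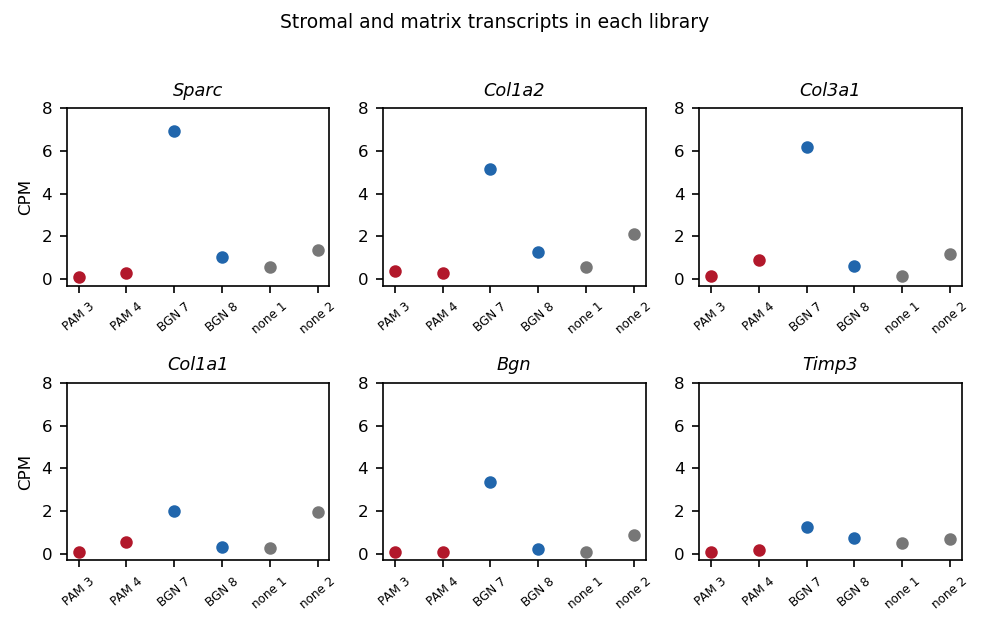
Level in CPM (y axes, 0 to 8) of 6 stromal and matrix transcripts in each library, labelled PAM for PAM3CSK4, BGN for biglycan and none for Th17 without ligand, with replicate numbers. Biglycan replicate 7 is the highest library in each panel, at 6.94 CPM for Sparc and 3.36 CPM for Bgn.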

How the data were processed

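Reads were aligned with Bowtie2 and counted with HTSeq on build mm9, per the submitters' processing notes, and the library kit was stranded, per the labels. Software versions, the annotation and whether counting used the strand were not given in the sources used here. Per gene, the authors deposited raw, unnormalized counts as whole numbers. Neither library sizes nor tests include the 5 summary lines of that table. One of them, for non-unique alignments, held 75.5 to 77.1% of the table total in the 4 libraries compared, so genes with close copies (histones, tubulins, some glycolysis genes) are uncertain. The deposited tables also give percent values of mapped, ribosomal and mitochondrial reads, per the file headers, which served only to describe libraries. Biglycan columns were matched by library number, since their column numbers (5 and 6) differ from their titles (7 and 8).

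Counts were fitted in R 4.3.3 with edgeR 4.0.16 (filterByExpr by group, TMM factors, quasi-likelihood test) in 1 model with a mean per group over all 8 libraries, naive CD4+ cells included, with 4 residual degrees of freedom and a common biological coefficient of variation of 6.19%. Calls used Benjamini-Hochberg adjustment over 11629 genes and a threshold of 0.05, and values after ± are standard errors unless marked SD. CPM were computed here from the deposited counts and TMM-adjusted library sizes. No label states that libraries of 1 group are different animals or cultures; p-values therefore describe only how far these libraries spread, and that spread may be technical. The 2 libraries of a group differed by more than sampling noise, with a chi-square per degree of freedom of 4.54 with PAM3CSK4 and 2.69 with biglycan.

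The members, the gene lists and the genes of interest were chosen with earlier results of these data known, so the lists are described by counts and medians with no test. Named genes are the 15 largest rises and falls among called genes at 5 CPM or more in the higher group without overlap between groups, up to 3 members with the smallest p per list and direction, and a list of genes of interest; of families and short lists any member may be named. Alternatives were upper-quartile and RLE scaling, DESeq2 1.42.0, no filter, a mean of at least 5 CPM, other sets of libraries, robust estimation, a test against a fold of 1.2, and leaving out each library. The fit was tested on simulated data in which 200 genes were changed. It recovered 66% of those changed by 1.5-fold and 85% of those changed by 2-fold, and 7.36% of its calls were false. Every simulated gene had the common biological coefficient of variation, which real genes need not share, so these rates do not measure the errors in the real data. Promoter sequences are RefSeq's. A few genes are not reported here.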

Additional observations from a re-analysis of the deposited data

How the results depend on the processing

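No paired analysis was possible because the PAM3CSK4 and biglycan libraries carry replicate numbers 3 and 4 against 7 and 8, which share none. The counts of genes higher and lower with PAM3CSK4 (658 and 684) were 1117 and 1114 in a fit of the 4 libraries alone and 158 and 138 in a test against a fold of 1.2. With DESeq2, 432 were higher and 462 lower. Leaving out each of the 8 libraries gave 171 to 917 higher and 189 to 961 lower. The counts at 2-fold or more (44 higher, 63 lower) were 25 and 30 with DESeq2, 21 and 26 at a mean of at least 5 CPM, and 29 and 38 in the test against a fold of 1.2. Without 1 library they were 19 to 47 higher and 20 to 83 lower. With the other scalings, robust estimation, no filter or the 6 polarized libraries, each of the 4 counts stayed within 1.5 times its value. Among the genes named, the test against a fold of 1.2 ended the calls of Bbc3, Bcl2l1, Bok, Ccna2, Ccr6, Cd2, Cdkn1a, Cdkn1b, Col3a1, Csf2, Cyp1a1, Cyp51, Foxo1, Itgal, Klf2, Lag3, Maf, Mcm6, Peli1, Peli2, Rela, Rrm2, Smad3, Tuba4a, Tubb5 and Txnip. Robust estimation ended those of Il10, Sparc and Col3a1, and DESeq2 those of Bbc3, Ccr6 and Tuba4a. For Bok, Csf2, Sparc, Col1a2 and Col3a1, all of low level, DESeq2 gave no adjusted p, so it did not test their calls. They count as not called in the DESeq2 list counts below. Mmp10 and Cysltr2, also of low level, had results in 15 of the 17 alternatives only. With DESeq2 several list counts in the text also moved by over 1.5 times: DNA replication had 5 genes lower instead of 8, and stromal markers 1 instead of 4. Pathogenic Th17 genes had 1 higher instead of 2, as did regulatory T cell genes, and the BCL2 family had 1 in each direction instead of 2. The lone members that fell among Th17 cytokines and ribosome biogenesis genes, or rose among oxidative phosphorylation genes and tubulins, were not called with DESeq2, which called 1 cytokine receptor gene lower.

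Of the genes named, 4 that were not called changed sign. Their log2 fold changes without 1 library ran from -0.12 (without biglycan replicate 8) to 0.45 (without biglycan replicate 7) for Tlr2, from -0.27 (without PAM3CSK4 replicate 3) to 0.11 (without biglycan replicate 7) for Tlr6, from -0.014 (without biglycan replicate 7) to 0.046 (without biglycan replicate 8) for Cd4, and from -0.0037 (without PAM3CSK4 replicate 3) to 0.34 (without PAM3CSK4 replicate 4) for Mcm3. Without PAM3CSK4 replicate 4, Tlr2 had -0.10 and Tlr6 had 0.048. With 2 libraries a group, the smallest difference called was 0.23 on the log2 scale among the 2907 most abundant tested genes and 0.55 among the 2908 least abundant. The cause of these changes was not tested.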
